A study of Mus musculus with 24 samples.

Results

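The 10 genes described here encode hydroxysteroid dehydrogenases and steroid reductases: *Hsd3b2*, *Hsd3b3*, *Hsd3b5*, *Hsd3b7*, *Hsd17b2*, *Hsd17b6*, *Hsd17b13*, *Hsd11b1*, *Srd5a1* and *Akr1d1*. They were taken by gene symbol from a table of 24532 genes, and all 10 were found there. RNA-seq was performed on the liver, inguinal white adipose tissue (iWAT), gastrocnemius muscle (GM) and hypothalamus of C57BL/6 mice at 8 weeks of age. The control (Ctrl) mice carried *Crif1* flox/flox alleles without Cre. The LKO mice carried the same floxed alleles with Alb-Cre, a recombinase driven by the albumin promoter, so that the deletion is aimed at hepatocytes. Which liver cells lost the gene was not tested here. CRIF1 is a protein of the mitochondrial ribosome, and its loss impairs the making of the mitochondrially encoded subunits of oxidative phosphorylation. There were 3 libraries per genotype and tissue, 24 in all. The labels do not tie the tissues to individual mice, so p-values measure only the spread between the libraries given.

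Steroid hormones are switched on, off and cleared by enzymes that move hydrogen at fixed positions of the ring system. Hydroxysteroid dehydrogenases interconvert a hydroxyl and a keto group, and whether a given enzyme activates or inactivates its hormone depends on the position and on its cofactor. The 5α- and 5β-reductases saturate the A ring, the first step in the clearance of glucocorticoids, androgens and progesterone. The liver is the main site of this clearance, and it uses enzymes of the same families to turn cholesterol into bile acids. In the mouse liver several of these genes differ between the sexes under the control of the growth hormone rhythm. White adipose tissue makes little steroid of its own but reactivates glucocorticoid locally through 11β-hydroxysteroid dehydrogenase 1.

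The depth inferred from coverage was between 4.45 and 8.09 gigabases per library. In liver the targeted gene, listed as *Gadd45gip1*, had 14.6, 12.5 and 13.6 FPKM (fragments counted per transcript length and per library total) in Ctrl 1, 2 and 3 and 5.4, 2.0 and 2.5 FPKM in LKO 1, 2 and 3. In the LKO livers the markers of several other cell types were higher: the summed level of 4 Kupffer cell markers was 91.4 to 95.5 FPKM in Ctrl and 193 to 290 FPKM in LKO, that of 4 monocyte markers 47.0 to 53.4 and 128 to 173 FPKM, and that of 4 stellate cell and fibroblast markers 58.6 to 67.0 and 151 to 166 FPKM. Each of these 12 markers was higher in every LKO liver than in every Ctrl liver, as were 53.0% of all genes tested in liver. The sums of 4 blood markers (171 to 262 FPKM in Ctrl, 173 to 241 FPKM in LKO) and of 4 lymph node markers (0.864 to 1.41 and 1.05 to 1.78 FPKM) overlapped. The sum of 5 hepatocyte markers was 54082 to 57112 FPKM in Ctrl and 40568 to 66106 FPKM in LKO livers. Of the 5, 2 (*Apoa1* and *Serpina1a*) were lower in every LKO liver, as were 8.1% of all genes tested in liver. In bulk samples fewer cells of a type and less RNA per cell cannot be told apart, and the part of cell composition in the results was not tested. The median log2 fold change of the genes tested in liver was 0.33 on the deposited FPKM (10956 genes), 0.47 on the deposited TPM (the same readout scaled to a fixed transcript total, 12109 genes) and -0.05 once the libraries were brought to a common median ratio (10939 genes), so that changes are also given on that last scale, called scaling from here on.

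In liver, 7 of the 10 transcripts were lower in LKO than in Ctrl mice: *Hsd3b5*, *Hsd3b2*, *Hsd3b3*, *Hsd11b1*, *Srd5a1*, *Hsd3b7* and *Hsd17b2*. *Hsd17b13* rose, and *Hsd17b6* and *Akr1d1* did not pass the test. The test was limma on log2(FPKM + 1), where a gene passed if it changed at least 1.5-fold and its p stayed under 0.05 after Benjamini-Hochberg adjustment over the genes of that tissue. The same rule called 27.4% of all tested liver genes, 3.5% as lower and 23.9% as higher. With an unadjusted p the same 8 members passed, where 28.9% of all genes did (3.75% lower, 25.2% higher). After median-ratio scaling the same 8 members passed in the same directions, where 17.4% of all genes did (8.59% lower, 8.82% higher). The deposited TPM gave 7 members lower and 1 higher, among 4820 genes called (350 lower, 4470 higher). The groups of 3 did not overlap for 9 of the 10 members, 7 of them lower and 2 higher in LKO livers, while 61.1% of all tested genes did not overlap (8.1% lower, 53.0% higher). The median log2 fold change of the members was -0.96 on the deposited scale and -1.39 after scaling.

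**Figure D1:**
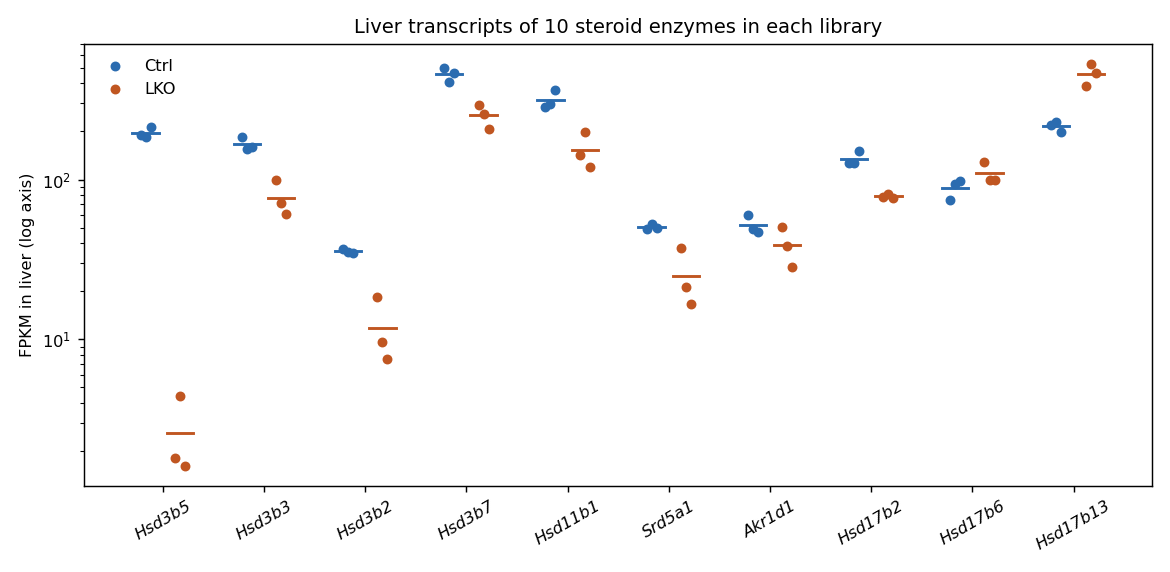
FPKM of the 10 members in liver on a log axis, with 1 point per library (Ctrl blue, LKO orange, n = 3 each) and a bar at the group mean. *Hsd3b5* separates most, from 185 to 213 FPKM in Ctrl to 1.62 to 4.39 FPKM in LKO, and *Hsd17b13* is the member whose LKO points lie well above the Ctrl points.

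**Figure D2:**
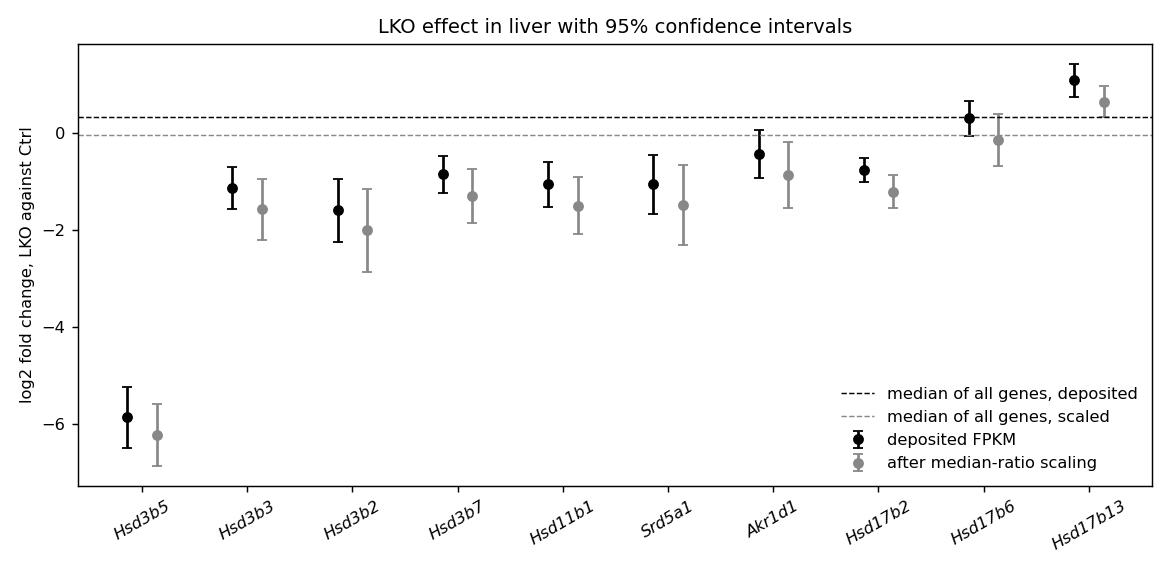
Log2 fold change of each member in liver, LKO against Ctrl, with its 95% confidence interval from limma, on the deposited FPKM (black) and after median-ratio scaling (grey). Dashed lines mark the median of all tested genes, 0.33 and -0.05. *Hsd17b6* changes sign between the scales and the other 9 members do not.

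The *Hsd3b* genes encode 3β-hydroxysteroid dehydrogenase and isomerase enzymes, which act on the ring position where every steroid made from cholesterol carries its first hydroxyl group. In the mouse they lie side by side on the minus strand of chromosome 3 (mm10), *Hsd3b5* (NCBI Gene 15496) from 98618636 to 98645534, *Hsd3b2* (15493) from 98711107 to 98724543 and *Hsd3b3* (15494) from 98741476 to 98763128. *Hsd3b4* lies on one side of these and *Hsd3b6* and *Hsd3b1* on the other. *Hsd3b5* and *Hsd3b4* are known as reductases of 3-ketosteroids, which inactivate androgen, and *Hsd3b5* as a transcript of the male liver. The 250 bases before the start of *Hsd3b5* (chr3:98645535-98645784) and of the first *Hsd3b3* entry (chr3:98763129-98763378) are shown because these were the most abundant pair of the cluster in Ctrl livers and lost different amounts in LKO livers. They come from the RefSeq table of the GRCm38.p6 build and are read along the gene. Capitals mark the only run of at least 12 bases that both hold, which was 24 bases long.
Hsd3b5: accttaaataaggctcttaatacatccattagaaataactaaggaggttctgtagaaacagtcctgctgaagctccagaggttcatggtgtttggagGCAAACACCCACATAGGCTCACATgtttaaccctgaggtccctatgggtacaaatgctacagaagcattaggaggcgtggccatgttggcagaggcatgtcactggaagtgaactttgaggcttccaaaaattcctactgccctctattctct
Hsd3b3: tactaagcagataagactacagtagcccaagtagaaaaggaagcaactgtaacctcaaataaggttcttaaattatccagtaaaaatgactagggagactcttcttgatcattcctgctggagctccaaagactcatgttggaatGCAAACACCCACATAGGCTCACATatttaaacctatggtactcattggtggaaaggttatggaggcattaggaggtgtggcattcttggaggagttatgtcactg
No other pair among the windows of *Hsd3b2*, *Hsd3b3*, *Hsd3b5* and *Hsd3b7* shared a run of more than 9 bases.

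*Hsd3b5* had 191, 185 and 213 FPKM in Ctrl 1, 2 and 3, and 1.81, 4.39 and 1.62 FPKM in LKO 1, 2 and 3. The lowest Ctrl liver was far above the highest LKO liver. *Hsd3b5* fell by 5.85 on the log2 scale (standard error 0.27, limma adjusted p = 1.36e-04), the 4th lowest value of the 10956 genes tested, and its value was -6.22 after scaling. By its mean level it went from rank 361 in Ctrl to rank 9293 in LKO livers. *Hsd3b3*, a dehydrogenase and isomerase of liver and kidney, had 184, 156 and 161 FPKM in Ctrl and 98.8, 71.4 and 60.7 FPKM in LKO livers. The groups did not overlap, and all 3 LKO livers kept a level that *Hsd3b5* no longer had. Its log2 fold change was -1.13 (standard error 0.18, limma adjusted p = 0.00488), and -1.57 after scaling. *Hsd3b2*, the least abundant of these 3 genes in Ctrl livers, had 36.6, 35.2 and 34.7 FPKM in Ctrl and 18.3, 9.65 and 7.50 FPKM in LKO livers. The Ctrl livers were nearly equal, and LKO 1 was closest to them. The log2 fold change of *Hsd3b2* was -1.60 (standard error 0.28, limma adjusted p = 0.00595), and -2.01 after scaling. With ordinary in place of moderated variances its adjusted p was 0.0503.

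Over the cluster, the summed level of *Hsd3b2*, *Hsd3b3*, *Hsd3b4*, *Hsd3b5* and *Hsd3b6* was 412, 378 and 409 FPKM in Ctrl and 119, 85.4 and 69.9 FPKM in LKO livers. That is 399.7 ± 18.6 and 91.5 ± 25.2 FPKM (SD, n = 3 each), a difference of means of -2.15 on the log2 scale. The groups did not overlap, and the exact two-sided permutation p was 0.1, the smallest that 3 against 3 allows. The make-up of the sum differed as well. *Hsd3b5* gave 46.3%, 49.0% and 52.1% of it in Ctrl livers and 1.52%, 5.14% and 2.31% in LKO livers. *Hsd3b3* went from 44.7%, 41.1% and 39.3% to 82.9%, 83.6% and 86.9%, so that in LKO livers it was most of what remained.

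The genes of the cluster are near copies, and reads can be shared. Over the coding sequence *Hsd3b5* was 95.2% identical to *Hsd3b4* and 80.7% to *Hsd3b2*, and *Hsd3b2* was 95.1% identical to *Hsd3b3* (GENCODE M21 transcripts on GRCm38). Of the windows of 100 bases along the transcript, 7.79% of *Hsd3b5* were found without a mismatch in *Hsd3b4*, and 0.0% in *Hsd3b2* or *Hsd3b3*. For *Hsd3b2* the share found in *Hsd3b3* was 12.14%, and for *Hsd3b3* the share found in *Hsd3b2* was 14.3%. With up to 2 mismatches these shares were 27.93% for *Hsd3b5* in *Hsd3b4*, 19.24% for *Hsd3b2* in *Hsd3b3* and 22.66% for *Hsd3b3* in *Hsd3b2*. At that limit the share of *Hsd3b5* was still 0.0% in *Hsd3b2* and in *Hsd3b3*. Both of the latter also shared windows with *Hsd3b6*, 2.84% of *Hsd3b2* and 3.91% of *Hsd3b3* without a mismatch and 14.21% and 15.69% with up to 2. How the reads were split among these genes is therefore uncertain. *Hsd3b7*, a distant relative, shared no window of that kind with any of them.

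**Figure D3:**
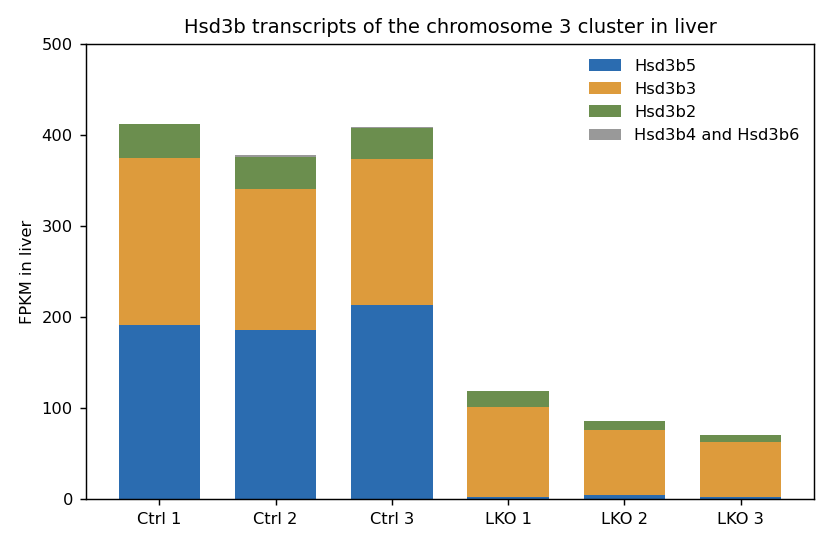
Summed FPKM of the *Hsd3b* genes of the chromosome 3 cluster in each liver library, stacked by gene from an axis that starts at 0. The 3 Ctrl livers reach 378 to 412 FPKM with *Hsd3b5* as the lower part of the bar, and the 3 LKO livers reach 69.9 to 119 FPKM, most of it *Hsd3b3*.

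*Hsd3b7* (NCBI Gene 101502, chromosome 7 from 127800609 to 127803802, plus strand) encodes the 3β-hydroxysteroid dehydrogenase that acts on the early C27 sterols of bile acid synthesis rather than on hormones. It was the most abundant member in Ctrl livers, with 499, 407 and 461 FPKM, and had 294, 258 and 206 FPKM in LKO livers. The groups did not overlap. On the log2 scale *Hsd3b7* fell by 0.86 (standard error 0.16, limma adjusted p = 0.00747), and its value was -1.30 after scaling. The window before its start (chr7:127800359-127800608) is shown because it held a match to 1 of 4 motifs searched in the members, in capitals.
Hsd3b7: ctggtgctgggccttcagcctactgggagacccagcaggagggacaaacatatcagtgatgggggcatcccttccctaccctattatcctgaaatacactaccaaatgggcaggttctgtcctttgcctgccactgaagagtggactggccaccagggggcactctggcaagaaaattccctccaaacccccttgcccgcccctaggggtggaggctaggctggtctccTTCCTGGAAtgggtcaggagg

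The motifs, searched on both strands, were TTCNNNGAA, the palindrome bound by STAT factors, TGATGNAA, the core of the C/EBP-ATF response element, CAAAGTCCA, a form of the HNF4A site, and a form of the glucocorticoid response element. Of 32851 windows of the same length before all gene starts of the table, 7.02% held the first, 3.45% the second, 0.384% the third and 0.368% the fourth. The 11 windows of the 9 members with an entry held the first in *Hsd3b7*, from -21 to -13 before the start, and the second in *Hsd17b13*, and no other match. A match is a string of letters and not a shown binding site.

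*Hsd11b1* (NCBI Gene 15483, chromosome 1 from 193221641 to 193264045, minus strand) encodes the enzyme that regenerates active glucocorticoid from its inert 11-keto form. It had 286, 297 and 365 FPKM in Ctrl and 142, 199 and 119 FPKM in LKO livers, without overlap. On the log2 scale *Hsd11b1* fell by 1.06 (standard error 0.20, limma adjusted p = 0.00797), and its value was -1.5 after scaling. With ordinary variances the adjusted p was 0.0523. *H6pd*, which supplies the NADPH that sets the direction of this enzyme, did not pass in liver, with 106, 120 and 125 FPKM in Ctrl and 163, 188 and 136 FPKM in LKO (log2 fold change 0.46, and 0.02 after scaling). On the deposited scale its groups did not overlap and its limma adjusted p was 0.0379, but the change was short of the 1.5-fold limit.

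*Srd5a1* (NCBI Gene 78925, chromosome 13 from 69573449 to 69611463, minus strand) encodes steroid 5α-reductase 1, which makes dihydrotestosterone and starts the clearance of glucocorticoids. Its levels were 49.4, 52.6 and 49.4 FPKM in Ctrl and 37.1, 21.3 and 16.7 FPKM in LKO livers. The groups did not overlap, and the LKO livers were spread more widely than the Ctrl livers. On the log2 scale *Srd5a1* fell by 1.06 (standard error 0.26, limma adjusted p = 0.0185), and its value was -1.49 after scaling. This call did not hold in every setting: the adjusted p was 0.0568 without Ctrl 1, 0.0663 without Ctrl 2, 0.0607 without Ctrl 3 and 0.0736 without LKO 2, and 0.084 with ordinary variances. The log2 fold change of *Srd5a1* changed little in these settings, from -1.07 to -0.985. *Akr1d1* (NCBI Gene 208665, chromosome 6 from 37530173 to 37568815, plus strand) encodes the 5β-reductase, which serves both hormone clearance and bile acid synthesis. It had 60.2, 49.2 and 47.0 FPKM in Ctrl and 50.3, 38.5 and 28.5 FPKM in LKO livers. The groups overlapped through LKO 1. The log2 fold change of *Akr1d1* was -0.43 (95% confidence interval -0.92 to 0.05, limma adjusted p = 0.119), and -0.87 after scaling (adjusted p 0.0564), and without LKO 1 it passed (-0.63, adjusted p 0.00743). The 95% confidence intervals of both reductases on the deposited scale overlapped, since that of *Srd5a1* ran from -1.67 to -0.45.

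The *Hsd17b* genes encode enzymes that act mainly on the 17-position, where the hydroxyl of testosterone and estradiol sits. *Hsd17b2* (NCBI Gene 15486, chromosome 8 from 117701946 to 117759029, plus strand) inactivates both hormones by oxidation. It had 127, 127 and 150.0 FPKM in Ctrl and 77.6, 80.9 and 76.3 FPKM in LKO livers, and the LKO livers were close together below all Ctrl livers. *Hsd17b2* fell by 0.77 on the log2 scale (standard error 0.11, limma adjusted p = 0.00293), and its value was -1.21 after scaling. *Hsd17b6* (NCBI Gene 27400, chromosome 10 from 127990936 to 128007508, minus strand) oxidizes 3α-hydroxysteroids and can return androstanediol to dihydrotestosterone. Its levels were 74.8, 94.4 and 98.0 FPKM in Ctrl and 129, 99.6 and 99.7 FPKM in LKO livers. All LKO livers were above all Ctrl livers, but Ctrl 3 and 2 of the LKO livers were almost level. The log2 fold change of *Hsd17b6* was 0.29 (95% confidence interval -0.07 to 0.66, limma adjusted p = 0.15), and it changed sign after scaling (-0.14, adjusted p 0.637).

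*Hsd17b13* (NCBI Gene 243168, chromosome 5 from 103955442 to 103977388, minus strand) encodes a protein of hepatocyte lipid droplets with retinol dehydrogenase activity, and was the 1 member that rose. It had 221, 229 and 198 FPKM in Ctrl and 388, 528 and 464 FPKM in LKO livers, without overlap. *Hsd17b13* rose by 1.08 on the log2 scale (standard error 0.14, limma adjusted p = 0.00254), and its value was 0.64 after scaling (adjusted p 0.0158), against medians of 0.33 and -0.05 over all genes. It passed in all 12 other settings tried, with log2 fold changes from 0.64 to 1.20. The window before its start (chr5:103977389-103977638, GRCm38.p6, minus strand) is shown because it held the TGATGNAA match, in capitals.
Hsd17b13: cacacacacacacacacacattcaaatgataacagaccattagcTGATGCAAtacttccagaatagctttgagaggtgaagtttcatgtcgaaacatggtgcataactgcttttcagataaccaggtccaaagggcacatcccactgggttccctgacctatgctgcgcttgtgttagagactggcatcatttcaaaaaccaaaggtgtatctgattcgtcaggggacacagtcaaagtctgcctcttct

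The 3 LKO livers were not alike. LKO 1 was the highest of the 3 for 6 of the 10 members, among them *Srd5a1* and *Hsd3b2*, and for 17.4% of all 10956 genes tested, and it was the lowest for *Hsd17b13*. LKO 3 was the lowest for 8 of the 10 members and for 15.2% of all genes. *Gadd45gip1* was highest in LKO 1 but lowest in LKO 2. Other values also differed among LKO 1, 2 and 3: the hepatocyte marker *Apoa1* had 6164, 4573 and 2942 FPKM, the Kupffer cell marker *Clec4f* had 65.5, 82.8 and 113 FPKM, and the median-ratio size factors were 1.01, 1.19 and 1.34. When LKO 1 was left out *Hsd3b2* changed by -1.94, *Hsd3b3* by -1.32 and *Srd5a1* by -1.37 on the log2 scale, and the part of remaining *Crif1*, cell composition or scaling in this spread was not tested.

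Among the Ctrl tissues each member had its highest level in liver. *Hsd3b2*, *Hsd3b3*, *Hsd3b5*, *Hsd17b2*, *Hsd17b6*, *Hsd17b13* and *Akr1d1* stayed under 1 FPKM in all libraries of the other tissues, and *Hsd3b2*, *Hsd3b5* and *Akr1d1* were listed at 0 in all 6 iWAT libraries. The traces in GM were uneven: *Hsd3b5* was 0.903 FPKM in GM Ctrl 1, 0.466 FPKM in GM Ctrl 3 and listed at 0 in GM Ctrl 2, in the order of *Alb* in the same libraries (167, 125 and 13.7 FPKM), and whether they are liver RNA was not tested. *Hsd11b1* came in the order liver (286 to 365 FPKM), iWAT (89.2 to 173 FPKM), hypothalamus (6.63 to 8.45 FPKM) and GM (4.34 to 7.94 FPKM), where the last pair overlapped. *Hsd3b7* had the same order without overlap, at 407 to 499, 75.9 to 88.7, 9.51 to 11.4 and 6.23 to 8.48 FPKM. *Srd5a1* differed in that hypothalamus (4.71 to 5.64 FPKM) was above iWAT (2.38 to 3.95 FPKM), and it was under 1 FPKM in GM.

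In iWAT, *Hsd11b1*, *Hsd3b7* and *Srd5a1* could be tested, and 0 of the 3 passed the adjusted rule, which called 0.0% of the 12288 genes tested. With an unadjusted p under 0.05 in its place, 2 of the 3 passed, where 3.25% of all genes did: *Hsd11b1* as higher (1.95% of all genes) and *Srd5a1* as lower (1.29%). *Hsd11b1* had 173, 132 and 89.2 FPKM in iWAT of Ctrl and 229, 350 and 161 FPKM in iWAT of LKO mice. The groups overlapped, as LKO 3 was below Ctrl 1, and both were widely spread. The log2 fold change was 0.88 (95% confidence interval 0.08 to 1.69, unadjusted p = 0.0351 and adjusted p = 0.289 from limma). The unadjusted p from limma was 0.0633 without Ctrl 2, 0.108 without Ctrl 3, 0.0746 without LKO 1 and 0.1 without LKO 2, where the log2 fold change went down to 0.60. The summed level of 4 adipocyte markers, most of it *Fabp4*, was 20705 to 24371 FPKM in Ctrl and 25673 to 27001 FPKM in LKO iWAT. Of the 4, 2 (*Fabp4* and *Cidec*) were higher in every LKO library. *Adipoq* (2784 to 3036 and 2909 to 2943 FPKM) and *Plin1* (787 to 1104 and 869 to 976 FPKM) overlapped. The sum of 4 stellate cell and fibroblast markers overlapped as well (1190 to 2008 and 1115 to 1517 FPKM). The sum of 4 neutrophil markers was 2.19 to 3.36 FPKM in Ctrl and 5.33 to 18.9 FPKM in LKO iWAT, with 3 of the 4 higher in every LKO library. The choroid plexus list, nearly all of it *Aqp1*, a water channel also made by endothelium, was 79.5 to 122 FPKM in Ctrl and 142 to 261 FPKM in LKO, with 1 of its 4 genes higher in every LKO library. The sum of 4 skeletal muscle markers overlapped, at 44.7 to 423 FPKM in Ctrl and 28.0 to 674 FPKM in LKO. The sum of 5 hepatocyte markers, nearly all of it *Alb*, was 14.4 to 25.8 FPKM in Ctrl and 36.7 to 53.7 FPKM in LKO iWAT, with 1 of the 5 higher in every LKO library. The muscle sum was highest in Ctrl 1 (*Acta1* 173 FPKM) and LKO 2 (*Acta1* 259.8 FPKM), which also had the most *Hsd11b1* of their groups. The sum of 4 mammary epithelium markers was 0.0415 to 0.327 FPKM in Ctrl and 0.230 to 7.28 FPKM in LKO iWAT, with 1 of the 4 higher in every LKO library. Of these, *Krt18* was 2.63 FPKM in LKO 1 and 4.26 FPKM in LKO 2, the libraries with the most *Hsd11b1*, and 0.132 FPKM in LKO 3. *Krt8* was 1.91 and 2.11 FPKM in LKO 1 and 2 and 0.0974 FPKM in LKO 3. The sum of 4 blood markers overlapped (226 to 606 FPKM in Ctrl, 41.7 to 853 FPKM in LKO), with 1 of the 4, *Alas2*, higher in every LKO library. *Hbb-bs* was 19.5 and 27.1 FPKM in LKO 1 and 2, 794 FPKM in LKO 3, and 217, 585 and 454 FPKM in Ctrl 1, 2 and 3. The part of cell composition in the *Hsd11b1* values was not tested. *H6pd* in the same libraries had 72.9, 71.4 and 75.0 FPKM in Ctrl and 85.7, 98.8 and 103 FPKM in LKO, without overlap, and did not pass (log2 fold change 0.38, limma adjusted p = 0.145).

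*Srd5a1* in iWAT had 2.38, 3.31 and 3.95 FPKM in Ctrl and 1.5, 1.11 and 1.49 FPKM in LKO. These are low levels, and the groups did not overlap, as for 20.8% of all genes tested there (11.0% with LKO lower). The log2 fold change was -0.82 (standard error 0.16, unadjusted p = 0.0016 and adjusted p = 0.111 from limma). *Hsd3b7* was nearly level, with 75.9, 76.6 and 88.7 FPKM in Ctrl and 75.5, 89.0 and 89.2 FPKM in LKO (log2 fold change 0.07, 95% confidence interval -0.18 to 0.32).

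**Figure D4:**
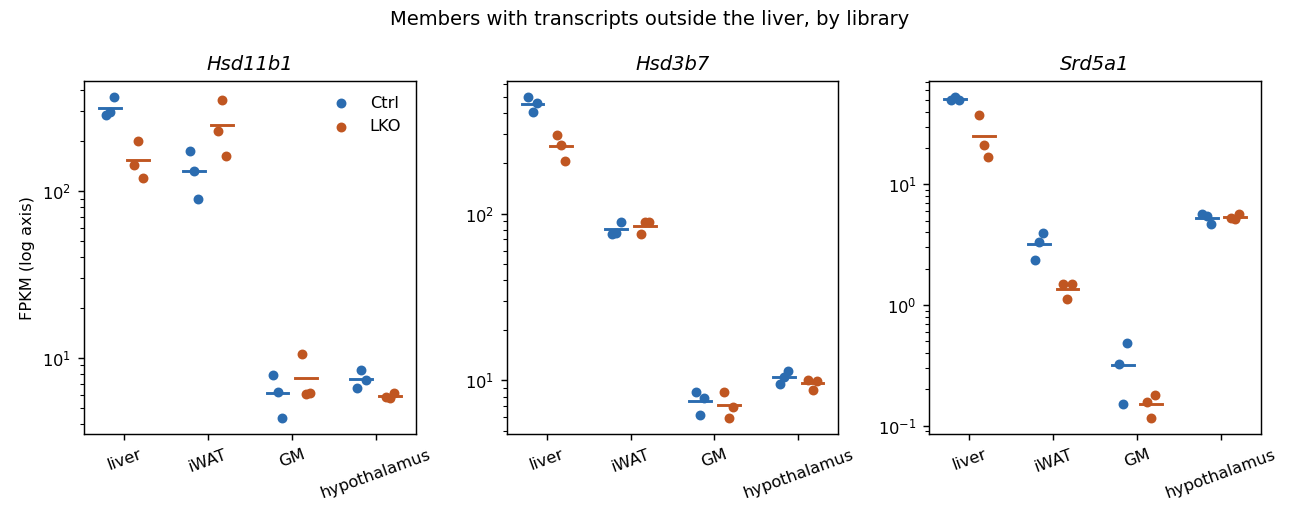
FPKM of *Hsd11b1*, *Hsd3b7* and *Srd5a1* in the 4 tissues on log axes, with 1 point per library (Ctrl blue, LKO orange, n = 3 each) and a bar at the mean. The LKO points of *Hsd11b1* lie below Ctrl in liver and mostly above in iWAT, and those of *Srd5a1* lie below in both.

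Whether the LKO effect differed between tissues was tested over all 24 libraries, taken as independent. If tissues of 1 mouse were among them, these p-values do not account for it. The F test over 3 interaction contrasts passed for 8 of the 10 members (adjusted p under 0.05), and for 33.5% of the 15849 genes tested. For genes near 0 outside the liver this test restates the liver effect, and with a pseudocount of 0.1 it passed for 4 members, *Hsd3b2*, *Hsd3b5*, *Hsd3b7* and *Hsd11b1*. The contrast of iWAT against liver alone, added after seeing the data, passed for 7 members and 34.7% of all genes. This contrast also restates the liver effect for *Hsd3b2*, *Hsd3b3*, *Hsd3b5*, *Hsd17b2* and *Hsd17b13*, which stayed under 1 FPKM in every iWAT library. For *Hsd11b1* the LKO effect in iWAT was above that in liver by 1.95 on the log2 scale (standard error 0.39, limma adjusted p = 9.26e-04). For *Srd5a1* that difference was 0.24 (standard error 0.27, limma adjusted p = 0.54), and for *Hsd3b7* it was 0.93 (standard error 0.19, limma adjusted p = 0.00134).

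In GM, *Hsd11b1* and *Hsd3b7* were tested and neither passed by the adjusted or the unadjusted rule, which called 0.0% and 0.901% of genes. *Hsd11b1* had 7.94, 6.25 and 4.34 FPKM in GM of Ctrl and 10.6, 6.08 and 6.18 FPKM in GM of LKO mice. These groups overlapped, as did those of *Hsd3b7*, where 11.6% of genes did not. In hypothalamus 0 of the 3 members tested passed by limma with the adjusted or the unadjusted rule, where 0.0217% and 0.333% of genes did. *Hsd11b1* there had 6.63, 8.45 and 7.38 FPKM in Ctrl and 5.82, 5.75 and 6.16 FPKM in LKO. The groups did not overlap, as for 9.7% of genes (4.97% with LKO lower), and the log2 fold change was -0.29 (95% confidence interval -0.50 to -0.08, limma adjusted p = 0.999), short of the 1.5-fold limit. The values of *Srd5a1* (4.71 to 5.64 FPKM in Ctrl, 5.14 to 5.64 FPKM in LKO) and *Hsd3b7* (9.51 to 11.4 and 8.80 to 10.1 FPKM) overlapped.

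The other genes of steroid handling were read from lists beside the members, with the limma test of each gene over all genes of the tissue. Of the other hydroxysteroid dehydrogenases, 8 of 15 found in the table could be tested in liver. *Hsdl2*, a peroxisomal relative, was higher in LKO livers (24.6 to 29.5 FPKM in Ctrl, 38.4 to 54.7 FPKM in LKO, log2 fold change 0.80), as was *Hsdl1* (2.27 to 2.58 and 2.95 to 5.40 FPKM, 0.62). These 2 of the 8 were called higher and 0 lower, where 23.9% and 3.5% of all liver genes were, and the median was 0.20. The call of *Hsdl1* held in 4 of 12 other settings and was lost without Ctrl 1, 2 or 3, LKO 2 or LKO 3 (adjusted p 0.0813, 0.0954, 0.109, 0.117 and 0.0783). After median-ratio scaling 0 were higher and 2 lower, where 8.82% and 8.59% of all genes were. Among these 2 was *Hsd17b10*, a mitochondrial enzyme, with 104 to 105 FPKM in Ctrl and 73.5 to 85.0 FPKM in LKO (log2 fold change -0.43, and -0.87 after scaling). Of 9 other reductases tested, 2 were higher and 2 lower with a median of -0.32, where 23.9% of all liver genes were called higher and 3.5% lower. After scaling 1 was higher and 3 lower, where 8.82% and 8.59% of all genes were, with a median of -0.76. *Akr1c14*, a 3α-hydroxysteroid dehydrogenase, fell (140 to 177 FPKM in Ctrl, 65.3 to 91.1 FPKM in LKO, log2 fold change -1.0). *Akr1c6*, an abundant 17β-hydroxysteroid dehydrogenase, fell from 815 to 969 FPKM in Ctrl to 478 to 622 FPKM in LKO livers (-0.68), a call that held in 8 of 12 other settings and was lost without Ctrl 2 (adjusted p 0.0524), without LKO 2 (0.0555) and, by its size, without LKO 3 (-0.58). The pair that rose were *Dhrs9*, a retinol and 3α-hydroxysteroid dehydrogenase (0.869 to 1.96 and 5.03 to 9.39 FPKM, 1.89), and *Srd5a3*, which reduces polyprenol for protein glycosylation (5.05 to 5.54 and 8.92 to 12.7 FPKM, 0.93), and after scaling *Srd5a3* was under the 1.5-fold limit (0.54).

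Of 5 tested P450s and partners of steroid synthesis 1 was called higher and 0 lower, where 23.9% and 3.5% of all liver genes were. The 1 that rose was *Por*, the electron donor of microsomal P450s (42.8 to 71.3 FPKM in Ctrl, 104 to 159 FPKM in LKO, log2 fold change 1.18), a call lost with ordinary variances (adjusted p 0.0569). *Cyp17a1*, the 17-hydroxylase, had 2.38, 1.72 and 1.98 FPKM in Ctrl and 21.7, 5.51 and 3.12 FPKM in LKO livers, and did not pass (1.49, adjusted p 0.063), but passed with the deposited TPM (1.74, adjusted p 0.0364), with the replicate number as a block (1.49, adjusted p 0.0315), without LKO 1 (0.78, adjusted p 0.00765) or without LKO 3 (2.01, adjusted p 0.0259). Steroid conjugation had 8 tested genes with 0 higher and 2 lower, where 23.9% and 3.5% of all liver genes were, and a median of -0.45. *Sult2a8*, a sulfotransferase of bile acids, fell (281 to 311 FPKM in Ctrl, 34.2 to 51.4 FPKM in LKO, log2 fold change -2.76), as did *Ugt2b1* (217 to 327 and 97.4 to 145 FPKM, -1.18). After scaling 6 of the 8 were lower and 0 higher, where 8.59% and 8.82% of all genes were. Of 5 tested steroid receptors and carriers 0 passed by the adjusted or the unadjusted rule, where 27.4% and 28.9% of all liver genes did. Among the 5 were *Nr3c1*, the glucocorticoid receptor (9.81 to 12.7 FPKM in Ctrl, 8.96 to 10.04 FPKM in LKO, -0.18), and *Serpina6*, the corticosteroid carrier of plasma (51.7 to 65.0 and 52.2 to 121 FPKM, 0.30). After scaling 1 was lower, *Nr3c1* at -0.59, where 8.59% of all genes were.

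Bile acid synthesis, the pathway of *Hsd3b7* and *Akr1d1*, had 10 tested genes, of which 5 fell and 2 rose with a median of -0.52, where 3.5% of all liver genes were called lower and 23.9% higher. *Cyp7b1*, the oxysterol 7α-hydroxylase, fell by 2.79 on the log2 scale (74.6 to 157 FPKM in Ctrl, 6.11 to 23.4 FPKM in LKO) and *Cyp8b1*, the sterol 12α-hydroxylase, by 1.49 (159 to 220 and 48.6 to 79.1 FPKM). *Slc27a5*, the synthetase that activates bile acids with coenzyme A, fell by 1.08, and *Baat*, which then joins them to taurine, by 0.87. *Cyp7a1*, the rate-limiting enzyme, rose (10.5 to 12.4 and 17.8 to 26.4 FPKM, 0.84), and after scaling it did not pass (0.42, adjusted p 0.0701). Scaling left 7 lower and 0 higher, where 8.59% and 8.82% of all genes were. *Cyp27a1*, the sterol 27-hydroxylase, fell by 0.62, but its size was under the limit without Ctrl 2 (-0.58), LKO 1 (-0.58) or LKO 3 (-0.58). *Cyp39a1*, which acts on 24-hydroxycholesterol, rose by 0.91, a call lost without LKO 2 (adjusted p 0.0599).

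The male-biased liver transcripts, a class to which *Hsd3b5* belongs, fell in 10 of 12 tested, with a median of -1.73, where 3.5% of all liver genes were called lower. Like the other lists, this list was chosen with earlier results of these data known. After scaling 11 of 12 were lower, with a median of -2.17, where 8.59% of all genes were. Of this list, *Mup7* (-6.72) and *Elovl3* (-3.92) had the largest changes. The calls of *C6* and *Cyp4a12a* were lost without Ctrl 2 (adjusted p 0.0607 and 0.0883), without Ctrl 3 (0.0673 and 0.0972), and also for *C6* without LKO 3 (-0.54) and for *Cyp4a12a* without LKO 1 (-0.50) or LKO 2 (adjusted p 0.0768). Of the female-biased transcripts 3 of 9 could be tested and rose, *Cyp2a4* (2.5 to 5.61 FPKM in Ctrl, 91.0 to 214 FPKM in LKO), *Cyp2a22* and *Cyp2b9*. *Cyp2b9* was under 1 FPKM in all Ctrl livers and was tested only through its LKO values. Reads of the *Mup* and of the *Cyp2a* and *Cyp2b* genes can be shared with close paralogs. Of 8 transcripts known to be induced by glucocorticoid, *Mt2* (2.47 to 3.72 FPKM in Ctrl, 113 to 246 FPKM in LKO), *Zbtb16* and *Sgk1* rose and *Tsc22d3* fell (103 to 118 and 28.5 to 32.9 FPKM, log2 fold change -1.82), where 23.9% of all liver genes were called higher and 3.5% lower. The median of these 8 was 0.79, and 0.38 after scaling, with the same counts. The call of *Sgk1* was lost without Ctrl 2 (adjusted p 0.0804), Ctrl 3 (0.0842), LKO 2 (0.0859) or LKO 3 (0.0567). *Mt2* also answers to metals.

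**Figure D5:**
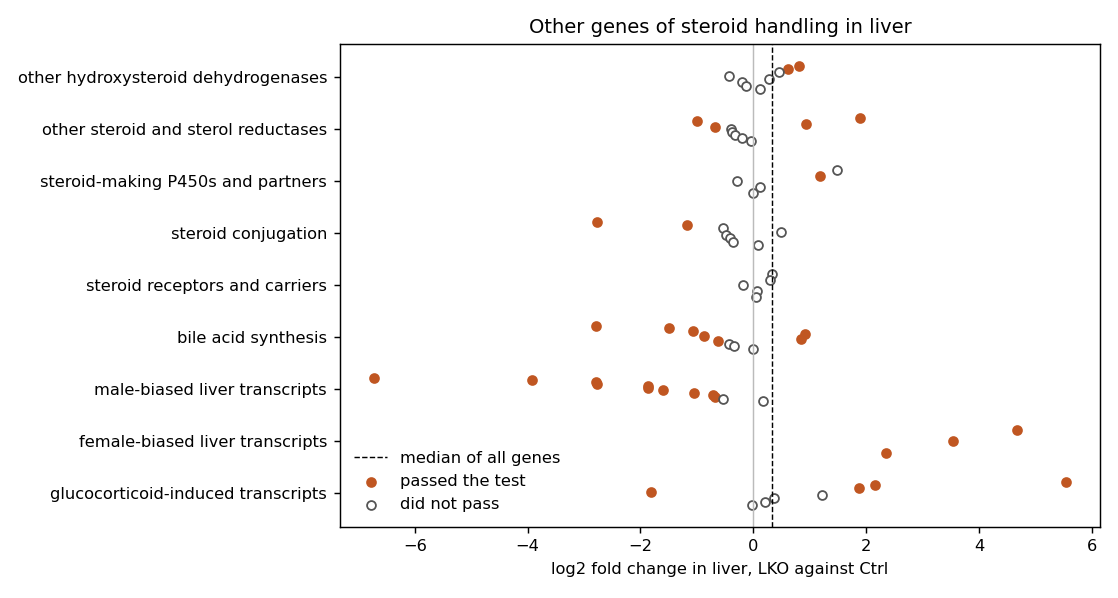
Log2 fold change in liver, LKO against Ctrl, of each tested gene of 9 lists, 1 row per list, with filled points for genes that passed the test and open points for those that did not. The dashed line is the median of all tested genes, 0.33. The male-biased list reaches -6.72 with 10 of 12 genes filled below 0.

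In iWAT 0 genes of these lists passed the adjusted rule, which called 0.0% of all genes tested there. The unadjusted rule called 3.25% of all genes in iWAT, 1.95% as higher and 1.29% as lower. By the unadjusted rule *Sult1e1*, the estrogen sulfotransferase, was lower in LKO mice (9.36, 14.8 and 28.0 FPKM in Ctrl, 3.63, 6.78 and 7.38 FPKM in LKO, log2 fold change -1.33, adjusted p = 0.21), and *Zbtb16* was higher (16.5, 7.22 and 37.0 FPKM in Ctrl, 41.0, 77.0 and 79.0 FPKM in LKO, 1.86, adjusted p = 0.204). The others past the unadjusted rule were *Alb* (1.39) and *Elovl3* (1.26), both higher, and *Mup7* (-0.98), which was lower. *Elovl3* was under 1 FPKM in every Ctrl iWAT library and was tested only through its LKO values. *Nr3c1* had 29.5, 29.6 and 24.3 FPKM in Ctrl and 21.2, 18.9 and 21.5 FPKM in LKO iWAT, without overlap (-0.42, limma adjusted p = 0.156). Of the 8 glucocorticoid-induced transcripts tested in iWAT *Zbtb16* alone passed the unadjusted rule, and the others had log2 fold changes from -0.35 (*Tsc22d3*) to 1.23 (*Fkbp5*).

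Over the 24 libraries, the genes most like each member by Pearson's r of log2(FPKM + 1), among 15849 genes that reached 1 FPKM in 3 or more libraries, were mostly other transcripts of the liver, since the points share tissue and library. For *Hsd3b5* they were *Serpina12* (0.991) and *Mup5* (0.991), for *Akr1d1* *Akr1c20* (0.9997) and *Timd2* (0.9996), for *Hsd11b1* *Acsm3* (0.986) and *Cd1d1* (0.982), and for *Srd5a1* *Adra1b* (0.991) and *Lrrc3* (0.989). *Hsd3b2* was closest to *Gm10319* and *Slc22a28*, *Hsd3b3* to *Ces2a* and *Slc10a1*, *Hsd3b7* to *Ttc38* and *Echdc2*, *Hsd17b2* to *Nr1i3* and *Dpys*, *Hsd17b6* to *Pla2g12b* and *Kynu*, and *Hsd17b13* to *Ugt2b34* and *C4bp*, each with an r of at least 0.991.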

How the data were processed

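Paired reads came from TruSeq RNA v2 libraries. Per the labels' processing notes the tools were FastQC 0.11.5, Trimmomatic 0.32, HISAT2 2.0.5, Bowtie2 2.2.6, STAR 2.5.2b and StringTie 1.3.3b on mm10, with no role given for each. The authors deposited a joined table of FPKM, scaled by the fragment total of the library, and a table per library with coverage, FPKM and TPM. The deposited coverage is not scaled for depth and the deposited TPM sum to the same total in each library. The authors' scaling does not correct for composition, and the values are not counts, so counting error could not be given. Depth was read from how coverage relates to FPKM.

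For each tissue, limma 3.58.1 (R 4.3.3, lmFit and eBayes with trend) compared 3 LKO with 3 Ctrl libraries on log2(FPKM + 1), for genes that reached 1 FPKM in 3 or more of the 6. Fold changes on this scale understate those of low genes. Tests are two-sided. Other settings tried were no filter, a pseudocount of 0.1, TPM, median-ratio scaling, ordinary variances, a replicate block and leaving out each library. Python 3.11.15 with pandas 2.3.3 and Biopython 1.88 read the tables, and the fits were tested on simulated data.

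The members, lists, motifs and tests were chosen with earlier results of these data known. The 10 members were named in every tissue where tested, with up to 4 genes of largest change per list and the 2 most alike genes per member. *Baat*, *Cyp7a1*, *Cyp27a1*, *C6*, *Cyp4a12a* and, in iWAT, *Tsc22d3* fall outside this rule and were named after their values were seen, as were the marker genes given by name. Promoter sequences came from RefSeq. *Hsd3b8*, *Hsd3b9*, *Hsd17b8* and *Sts* were not analysed here. The other marker lists written (neutrophil, cholangiocyte, blood, lymph node, mammary, skeletal muscle, hypothalamic neuron, choroid plexus) served to check the tissues. The skeletal muscle sum was 69365 to 80317 FPKM in GM, 44.7 to 423 FPKM in Ctrl and 28.0 to 674 FPKM in LKO iWAT, and 3.75 to 14.8 FPKM in liver, where neutrophil markers went from 0.934 to 1.42 FPKM in Ctrl to 7.31 to 9.62 FPKM in LKO and cholangiocyte markers from 2.63 to 3.35 FPKM to 7.53 to 11.3 FPKM.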

Additional observations from a re-analysis of the deposited data

Results flagged for a closer look

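For 8 members the LKO effect differed between the 4 tissues by the F test of genotype against tissue in a single fit of the 24 libraries, which passed for 33.5% of all 15849 genes. The adjusted p from limma was 4.92e-11 for *Hsd3b5*, 9.72e-05 for *Hsd3b2*, 0.00172 for *Hsd17b13*, 0.0032 for *Hsd17b2*, 0.0041 for *Hsd3b7*, 0.00443 for *Hsd11b1*, 0.00512 for *Hsd3b3* and 0.0106 for *Srd5a1*. Of these, *Hsd11b1*, *Hsd3b7* and *Srd5a1* were the ones with levels over 1 FPKM in a tissue other than liver, and for the others the test restates the liver effect. With a pseudocount of 0.1 it passed for 4 members, *Hsd3b2*, *Hsd3b5*, *Hsd3b7* and *Hsd11b1*, and *Srd5a1* had an adjusted p of 0.0622. *Hsd11b1* had a negative fold change in liver (-1.06) and a positive one in iWAT (0.88).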

How the results depend on the processing

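Of the 8 members called in liver, 5 passed with ordinary variances, the ones lost being *Hsd3b2*, *Hsd11b1* and *Srd5a1*. The calls among the pathway lists in liver went from 32 to 23 with ordinary variances, with *Por* (adjusted p 0.0569), *Cyp7b1* (0.0518), *Cyp2a22* (0.0645) and *Hsdl2* (0.0521) among those lost. Over all liver genes the count of 3006 became 4820 with the deposited TPM, 1905 after median-ratio scaling, 1499 with ordinary variances and 1343 to 3907 when 1 library was left out (1343 without LKO 2, 1715 without LKO 3, 1781 without Ctrl 2, 1786 without Ctrl 3). In iWAT the 2 members past the unadjusted rule became 1 with ordinary variances and 1 to 2 when 1 library was left out, and the 0 genes called became 14 after median-ratio scaling and 0 to 106 without 1 library (106 without LKO 1). In GM the 0 genes became 0 to 13 without 1 library (13 without LKO 1). In hypothalamus the 3 genes became 0 with no filter, 1 with TPM, 0 with ordinary variances and 0 with the replicate block, and 0 to 9 without 1 library (9 without Ctrl 1, 0 without LKO 3). Members whose effect differed between tissues went from 8 to 4 with a pseudocount of 0.1. Directions reversed for *Hsd17b6* in liver after median-ratio scaling (-0.14), *Hsd3b7* in GM (-0.07, with 0.015 without Ctrl 1, 0.042 without LKO 2, and -0.189 to 0.042 over all 6 libraries left out in turn) and *Srd5a1* in hypothalamus (0.02, with -0.048 without Ctrl 3, -0.017 without LKO 3, and -0.048 to 0.06 over the 6). The causes were not tested.

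Replicate numbers are shared between the groups. The correlations of same-numbered libraries were 0.154, 0.028 and 0.036 in liver, 0.302, -0.124 and 0.205 in iWAT, 0.354, 0.05 and 0.163 in GM and -0.135, 0.14 and 0.086 in hypothalamus, so in no tissue were all 3 over 0.1, and the numbers were not taken as pairs. With the replicate block 8 members and 3031 genes were called in liver, and *Hsd11b1* in iWAT, higher in LKO in all 3 same-numbered pairs, had an unadjusted p of 0.00924 and an adjusted p of 0.151 from limma. Depth limits what can be said of members under 1 FPKM.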
